A study of Mus musculus with 15 samples.

Results

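Thalamic neurons fire either in single spikes or in bursts, and the genes described here code for the channels that set which of these occurs. They are the 3 genes of the T-type calcium channel alpha1 subunits, Cacna1g, Cacna1h and Cacna1i, and 3 genes of the hyperpolarization-activated cyclic nucleotide-gated (HCN) channels, Hcn2, Hcn3 and Hcn4. They were taken by name, with earlier results of these data known. They are 6 of the 29659 genes in the files, and all 6 passed the filter on low values in both fits. Levels were measured by bulk RNA-seq of polyA RNA from the thalamus of mice aged 4.5 months. 5EL mice (n = 5) were 5xFAD/APOE4+/+/Lilrb4a+/+ and 5ELKO mice (n = 4) were 5xFAD/APOE4+/+/Lilrb4a-/-. EL mice (n = 3) carried APOE4+/+ with an intact Lilrb4a gene, and ELKO mice (n = 3) were APOE4+/+/Lilrb4a-/-. By their labels, all groups, controls included, thus carried human APOE4 in place of mouse Apoe, although the mouse Apoe level of 1 library, ELKO replicate 1, goes against this. The 5xFAD transgenes drive amyloid deposition and are expressed under the neuronal Thy1 promoter. The Lilrb4a deletion is present in the whole animal, and Lilrb4a is a receptor gene of microglia and other myeloid cells.

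T-type channels are closed by inactivation at rest and recover when a cell is hyperpolarized, after which a small depolarization opens them and carries a burst of spikes. HCN channels open on hyperpolarization, are shifted by cyclic AMP, and pass the inward current that brings the cell back towards that depolarization. Cacna1g is known as the T-type gene of relay neurons, whereas Cacna1h and Cacna1i are known from the GABAergic neurons of the reticular nucleus. Hcn2 and Hcn4 are the HCN genes best known from relay neurons, and Hcn3 is known from the habenula among other places.

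The deposited values are on a log2 scale and the name of the transform is not given in the sources used here, so the read number behind a single value is unknown. In bulk tissue, fewer cells of a type and less RNA per cell cannot be told apart. The p-values measure the spread between these libraries, because the labels do not say that each EL and ELKO library came from a separate animal. Group differences were tested with limma across all genes past the filter, and an adjusted p is Benjamini-Hochberg adjusted over those genes. Lilrb4a, the deleted gene, was at 2.35 to 2.66 in the 8 libraries with the gene and at 2.33 in each of the 7 without it. Its pooled log2 difference was -0.13 (SE 0.035, adjusted p = 0.961 in a limma fit of all 29659 genes), at values below the filter.

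A few libraries stood apart. In EL replicate 3, 984 of the 15804 genes tested lay more than 0.5 log2 from the median of the other libraries, in ELKO replicate 3 the number was 290, and in the others it was 23 to 136. The mean of 12 thalamic relay genes was 12 to 12.61 in the 15 libraries, and that of 9 cortical and hippocampal genes was 4.39 to 4.71. Choroid plexus genes were high in 5EL replicate 1 (list mean 7.98) and ELKO replicate 2 (8.37), against 5.63 to 6.24 elsewhere. Mouse Apoe, which APOE4+/+ animals should lack, was at 10.90 in the library labelled ELKO replicate 1 and at 5.92 to 6.37 in the other 14 libraries. The mean of 9 disease-associated microglia genes was 6.67 to 7.35 in the 5xFAD libraries and 6.53 to 6.71 in those without 5xFAD, with a slight overlap. The mean of 10 hepatocyte genes was 4.84 to 5.27 in 5ELKO and 4.48 to 4.67 in 5EL, and 3 of them were called between these groups by limma's adjusted p. The highest hepatocyte mean of the series, 5.36, was in EL replicate 1, and the other libraries without 5xFAD were at 4.45 to 4.64. Across the 15 libraries the r of that mean with the channel genes ran from -0.36 for Hcn2 to 0.32 for Cacna1i, and its part in their results was not tested further.

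The genes within each family are similar in sequence, and the longest stretches that their transcripts have in common are shown because read pairs were assigned to genes by name. Among the 6 pairs within a family the longest identical run was 32 to 68 bases, and among the 9 pairs across families it was 13 to 17 bases. Runs from 3 of the pairs, all in coding exons, are printed 5′ to 3′ from the GENCODE M21 transcripts of GRCm38 with 12 flanking bases on each side, and capitals mark the identical run. The run of Cacna1g and Cacna1i and that of Cacna1h and Cacna1i each code for a membrane-spanning segment, and the run of Hcn2 and Hcn4 codes for part of the pore.
Cacna1g, chr11:94443175-94443266, minus strand: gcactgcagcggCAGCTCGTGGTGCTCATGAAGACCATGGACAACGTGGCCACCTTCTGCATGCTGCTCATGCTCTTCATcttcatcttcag
Cacna1i, chr15:80369676-80369767, plus strand: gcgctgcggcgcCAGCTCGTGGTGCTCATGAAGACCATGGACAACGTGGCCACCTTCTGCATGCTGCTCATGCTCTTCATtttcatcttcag
Cacna1h, chr17:25383171-25383244, minus strand: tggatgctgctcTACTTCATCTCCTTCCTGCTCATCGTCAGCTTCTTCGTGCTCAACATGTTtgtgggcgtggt
Cacna1i, chr15:80378177-80378250, plus strand: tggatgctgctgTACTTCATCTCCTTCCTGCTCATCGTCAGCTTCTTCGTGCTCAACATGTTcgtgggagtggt
Hcn2, chr10:79728914-79728969, plus strand: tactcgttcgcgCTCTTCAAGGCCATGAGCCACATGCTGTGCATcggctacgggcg
Hcn4, chr9:58855546-58855601, plus strand: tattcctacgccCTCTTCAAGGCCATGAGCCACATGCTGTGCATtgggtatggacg
These runs are short beside the exons of the genes, which add up to 9763 bases in Cacna1h, 9862 in Cacna1i and 10137 in Cacna1g, and to 3195 in Hcn2, 4154 in Hcn3 and 6118 in Hcn4. How the authors treated read pairs that matched more than 1 gene is not given in the sources used here.

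Hcn2 and Cacna1g had the highest levels per kb and Cacna1h the lowest in 15 of 15 libraries, and all 6 genes kept the order of their means in 10 of 15. Per kb of exon, the mean log2 level over the 15 libraries was 10.66 for Hcn2 (SD 0.15), 8.95 for Cacna1g (SD 0.13) and 7.01 for Hcn4 (SD 0.17). It was 6.79 for Hcn3 (SD 0.28), 6.52 for Cacna1i (SD 0.42) and 4.84 for Cacna1h (SD 0.26). Hcn2 was higher per kb than 97.3% of the genes tested, Cacna1g than 88.3% and Cacna1h than 27.9%. Hcn2 exceeded Cacna1g, and Cacna1g exceeded Hcn4, in 15 of 15 libraries, by means of 3.27-fold and 3.85-fold per kb. Hcn4 exceeded Hcn3 in 10 of 15 libraries, with a mean gap of 0.22 in log2 per kb (SD 0.33), so these neighbours were not separated beyond the spread of the libraries. Hcn3 exceeded Cacna1i in 14 of 15, with a mean gap of 0.27 (SD 0.19). Among the T-type genes, Cacna1i exceeded Cacna1h by 3.21-fold per kb, in 15 of 15 libraries.

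Cacna1g, on chromosome 11 from 94408391 to 94474198 on the minus strand, is the most abundant T-type gene here. Its deposited log2 values were 12.49, 12.16, 12.13, 12.25 and 12.30 in 5EL and 12.35, 12.42, 12.23 and 12.09 in 5ELKO. They were 12.48, 12.34 and 12.32 in EL and 12.42, 12.17 and 12.26 in ELKO. The groups overlapped throughout, and the whole series spanned 0.40 log2, or 1.32-fold.

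Cacna1h, on chromosome 17 from 25374285 to 25433783 on the minus strand, is the T-type gene with the lowest RNA level per kb in these libraries. Its log2 values were 8.14, 8.47, 8.13, 8.30 and 8.20 in 5EL and 8.40, 7.93, 8.34 and 8.08 in 5ELKO. In EL they were 8.15, 7.95 and 7.52, and in ELKO 8.43, 8.08 and 7.78. The lowest library was EL replicate 3 and the second lowest ELKO replicate 3, and the groups overlapped.

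Cacna1i, on chromosome 15 from 80287238 to 80398279 on the plus strand, codes for the T-type subunit with the slowest gating. Its log2 values were 9.88, 10.07, 9.70, 9.99 and 9.98 in 5EL and 9.84, 9.97, 10.33 and 9.80 in 5ELKO. In EL they were 10.01, 9.68 and 8.56, and in ELKO 10.12, 10.08 and 9.36. EL replicate 3 was again lowest, 0.80 below ELKO replicate 3, which was the next library up. The whole range was 1.77 log2, or 3.41-fold, and was 0.65 log2 in the 13 libraries other than these.

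Hcn2, on chromosome 10 from 79716634 to 79736108 on the plus strand, is the HCN gene with the highest level per kb in these libraries. Its log2 values were 12.26, 12.25, 12.05, 12.54 and 12.49 in 5EL and 12.31, 12.19, 12.34 and 12.26 in 5ELKO. In EL they were 12.23, 12.52 and 12.54, and in ELKO 12.30, 12.30 and 12.47. EL replicate 3 and ELKO replicate 3 were not low for this gene, and each was the highest library of its group.

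Hcn3, on chromosome 3 from 89146074 to 89160196 on the minus strand, codes for an HCN subunit that responds little to cyclic AMP. Its log2 values were 8.93, 9.16, 8.95, 8.84 and 8.81 in 5EL and 8.73, 9.03, 9.04 and 8.85 in 5ELKO. In EL they were 9.07, 8.66 and 8.0, and in ELKO 8.99, 9.02 and 8.60. As for Cacna1i, EL replicate 3 was lowest, 0.60 below ELKO replicate 3, the next library up.

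Hcn4, on chromosome 9 from 58823412 to 58863175 on the plus strand, codes for a slowly opening, strongly cyclic AMP-sensitive HCN subunit, also known from the sinoatrial node. Its log2 values were 9.74, 9.45, 9.40, 9.63 and 9.82 in 5EL and 9.76, 9.79, 9.55 and 9.30 in 5ELKO. In EL they were 9.78, 9.63 and 9.59, and in ELKO 9.85, 9.47 and 9.55. High and low libraries occurred in each of the larger groups, and EL replicate 3 and ELKO replicate 3 lay in the middle of the range.

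**Figure D1:**
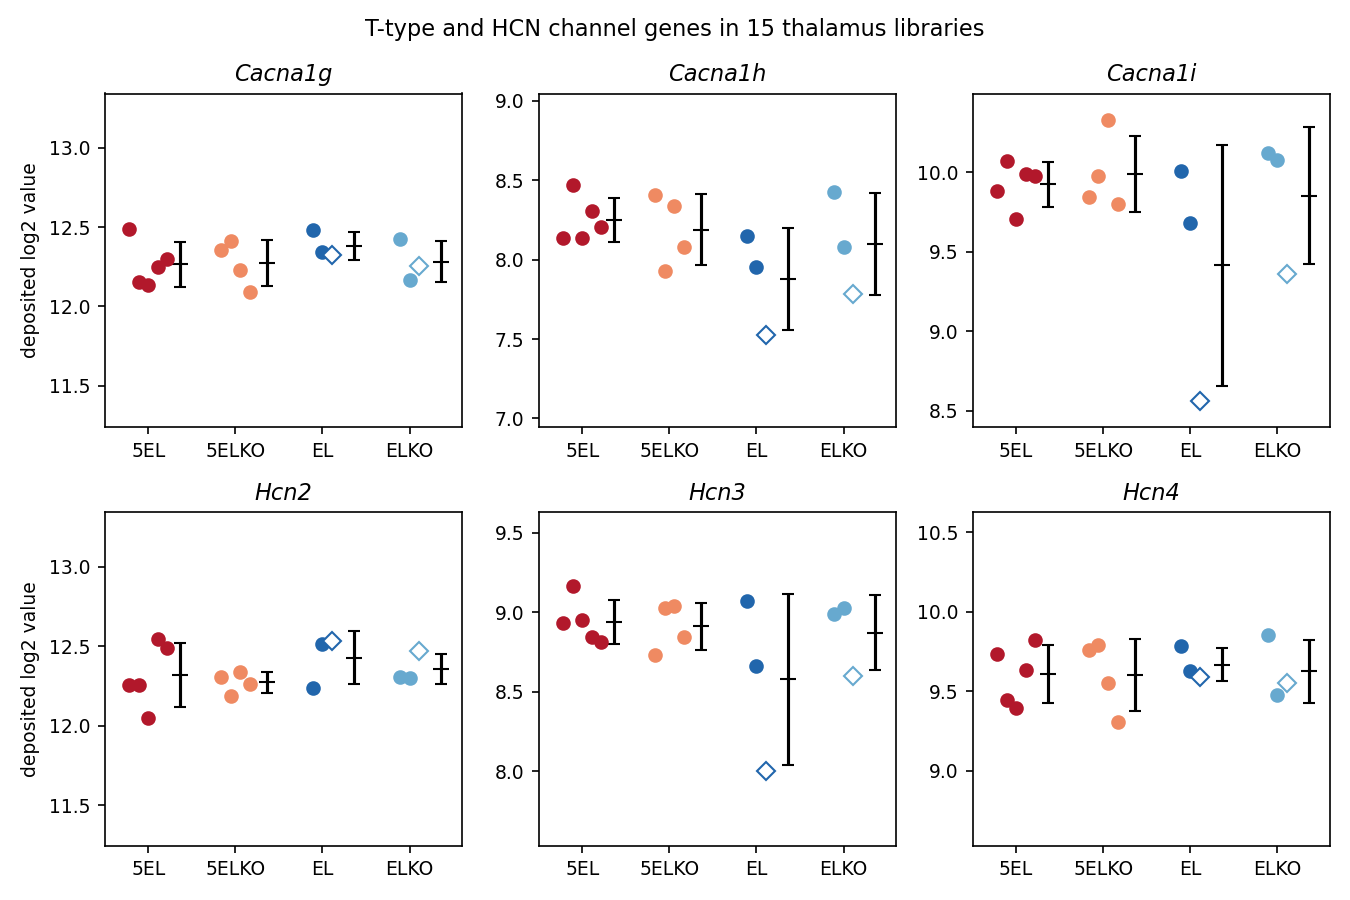
Deposited log2 value of each of the 6 channel genes (vertical axes, each spanning the same number of log2 units) in the 5EL, 5ELKO, EL and ELKO groups. Each point is a library, open diamonds are replicate 3 of EL and of ELKO, and bars to the right are group mean and SD; the open diamonds are the lowest points for Cacna1h, Cacna1i and Hcn3 but not for Cacna1g, Hcn2 or Hcn4.

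The study's own comparison asked what loss of Lilrb4a does in mice with amyloid. Between 5ELKO and 5EL, none of the 6 channel genes differed beyond the spread of the libraries. With limma, 0 of 6 had an adjusted p under 0.05 and 0 of 6 a nominal p under 0.05, where 0.0191% and 2.49% of the 15743 genes tested did. Log2 differences ran from -0.06 for Cacna1h to 0.06 for Cacna1i, with an adjusted p of 0.999 for each gene. Of the T-type genes, Cacna1g differed by 0.01 (SE 0.08), Cacna1h by -0.06 (SE 0.10) and Cacna1i by 0.06 (SE 0.10). Of the HCN genes, Hcn2 differed by -0.04 (SE 0.09), Hcn3 by -0.03 (SE 0.08) and Hcn4 by 0.00 (SE 0.11). The unadjusted 95% intervals bound what could have been missed: the lowest bound was 0.823-fold, for Cacna1h, and the highest was 1.22-fold, for Cacna1i. For Cacna1g, the main T-type gene of relay neurons, the interval was 0.891-fold to 1.13-fold. The median difference of the 6 genes was -0.02, beside 0.00 over all genes tested.

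In mice without 5xFAD, deletion of Lilrb4a likewise brought no call. In ELKO against EL, 0 of 6 genes had an adjusted p under 0.05 (0% of 15804 genes) and 0 of 6 a nominal p under 0.05 (2.35%), with limma. Cacna1i stood 0.44 higher in ELKO (SE 0.28, adjusted p = 0.998), Hcn3 0.29 higher (SE 0.20) and Cacna1h 0.22 higher (SE 0.17), while Cacna1g, Hcn2 and Hcn4 differed by -0.10, -0.07 and -0.04. The positive differences moved with the EL libraries. Without EL replicate 3 alone they were 0.01 for Cacna1i, 0.01 for Hcn3 and 0.04 for Cacna1h, a fit that keeps its low partner ELKO replicate 3. With both replicate 3 libraries left out they were 0.26, 0.14 and 0.20, with an adjusted p of 1 for each. Without EL replicate 1 they were 0.73, 0.54 and 0.36, Cacna1i and Hcn3 then passing a nominal p under 0.05, with adjusted p-values of 0.357, 0.301 and 0.465 in limma. Without ELKO replicate 1, the library with mouse Apoe, they were 0.30, 0.24 and 0.06.

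Across genes, the deviations of EL and ELKO libraries from their group means correlated at 0.45, 0.33 and 0.74 between libraries with the same number. Deviations within a group of 3 cancel, so these values depend on each other. No differently numbered EL and ELKO libraries were set beside them, so they do not establish a pairing. The comparison was also read within such pairs. Cacna1i was higher in ELKO in each of the 3 pairs, by 0.12, 0.40 and 0.80. Cacna1h was higher in each pair as well, by 0.28, 0.13 and 0.26. Hcn3 differed by -0.08, 0.36 and 0.60, so that its pairs did not all point the same way. With the pair as a block, the limma p was 0.0101 for Cacna1i, 0.0143 for Cacna1h and 0.054 for Hcn3. The adjusted p was 0.691 for all 3. The pairing was inferred from these same values after they were seen, and the labels do not state it. The p-values of this block fit are therefore no independent support. Both pairs with the larger Cacna1i difference had the lower EL values of that gene. Cacna1g was lower in ELKO in each pair, with differences of -0.06, -0.17 and -0.07.

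The contrast of 5EL with EL addressed the 5xFAD transgenes with Lilrb4a intact, and of the 7 comparisons, fitted on all their libraries without a block, it was the only one in which a channel gene passed the nominal threshold. Cacna1h had a mean of 8.25 in 5EL and 7.88 in EL, a difference of 0.37 (SE 0.16, 95% interval 1.03-fold to 1.63-fold, adjusted p = 0.631 in limma). Cacna1i stood 0.51 higher in 5EL (SE 0.25, adjusted p = 0.632) and Hcn3 0.36 higher (SE 0.18, adjusted p = 0.631). Cacna1g, Hcn2 and Hcn4 were lower by sign, with differences of -0.12, -0.11 and -0.06. By limma's adjusted p, 0 of 6 genes were called (0% of 15804 genes), and 1 of 6 had a nominal p under 0.05, where 7.7% of all genes tested did.

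These differences too were smaller without EL replicate 3. In its absence the difference of 5EL from EL was 0.20 for Cacna1h, 0.08 for Cacna1i and 0.07 for Hcn3, with an adjusted p of 0.9998 for each in limma. Without EL replicate 1 they were instead 0.51, 0.80 and 0.61, with adjusted p-values of 0.127, 0.112 and 0.0803 in limma, the last being the lowest of 978 values computed for the 6 genes under alternative settings. Of all genes tested, 31 were called in that fit of 5EL against EL, beside 0 in the main fit. EL replicate 3 also had low levels of genes of the cells in which Cacna1h, Cacna1i and Hcn3 are known, described with the marker lists. With the GABAergic and reticular mean as a covariate, the differences of Cacna1h, Cacna1i and Hcn3 were 0.15, 0.14 and 0.15. With the relay mean as a covariate they were 0.09, 0.04 and -0.01. These lists themselves differed between 5EL and EL. In limma 4 of 10 GABAergic and reticular genes were nominally higher and 8 of 12 relay genes nominally lower, where 7.7% of all genes passed. Such fits cannot tell the group and the covariate apart. The cause of the differences was not tested.

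In 5ELKO against ELKO, 0 of 6 genes had an adjusted p under 0.05 in limma (0% of genes) and 0 of 6 a nominal p under 0.05 (2.37%). Differences ran from -0.08 for Hcn2 to 0.14 for Cacna1i (SE 0.26), and the intervals of Cacna1i reached from 0.744-fold to 1.62-fold. The interaction, which asks whether the deletion effect differs with 5xFAD, called 0 of 6 genes (0% adjusted and 2.73% nominal of all genes) in limma. Its largest term was -0.37 for Cacna1i (SE 0.37, adjusted p = 0.9996 in limma), which was 0.05 without EL replicate 3.

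Over both Lilrb4a genotypes, the pooled 5xFAD effect was 0.32 for Cacna1i (SE 0.18), 0.23 for Cacna1h (SE 0.11) and 0.20 for Hcn3 (SE 0.13). It was -0.06 for Cacna1g (SE 0.06), -0.10 for Hcn2 (SE 0.07) and -0.04 for Hcn4 (SE 0.09). In limma 0 of 6 were called (0% of genes), the lowest adjusted p being 0.693, and 0 of 6 were nominal (6.57%). Without both replicate 3 libraries the effects of Cacna1i, Cacna1h and Hcn3 were -0.02, 0.07 and -0.01, and without ELKO replicate 1 that of Cacna1h was 0.32 (adjusted p = 0.437). Without EL replicate 1 the effects were 0.47, 0.30 and 0.32, each past a nominal p under 0.05, with adjusted p-values of 0.212, 0.225 and 0.193 in limma. The pooled deletion effect ran from -0.06 for Hcn2 to 0.25 for Cacna1i (SE 0.18), with 0 of 6 genes called (0%) or nominal (1.8%) in limma and an adjusted p of 1 for each. Without EL replicate 3 the deletion effect of Cacna1i was 0.04. Without EL replicate 1 it was 0.40 for Cacna1i and 0.26 for Hcn3, both past a nominal p under 0.05, with an adjusted p of 0.639 for each in limma.

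**Figure D2:**
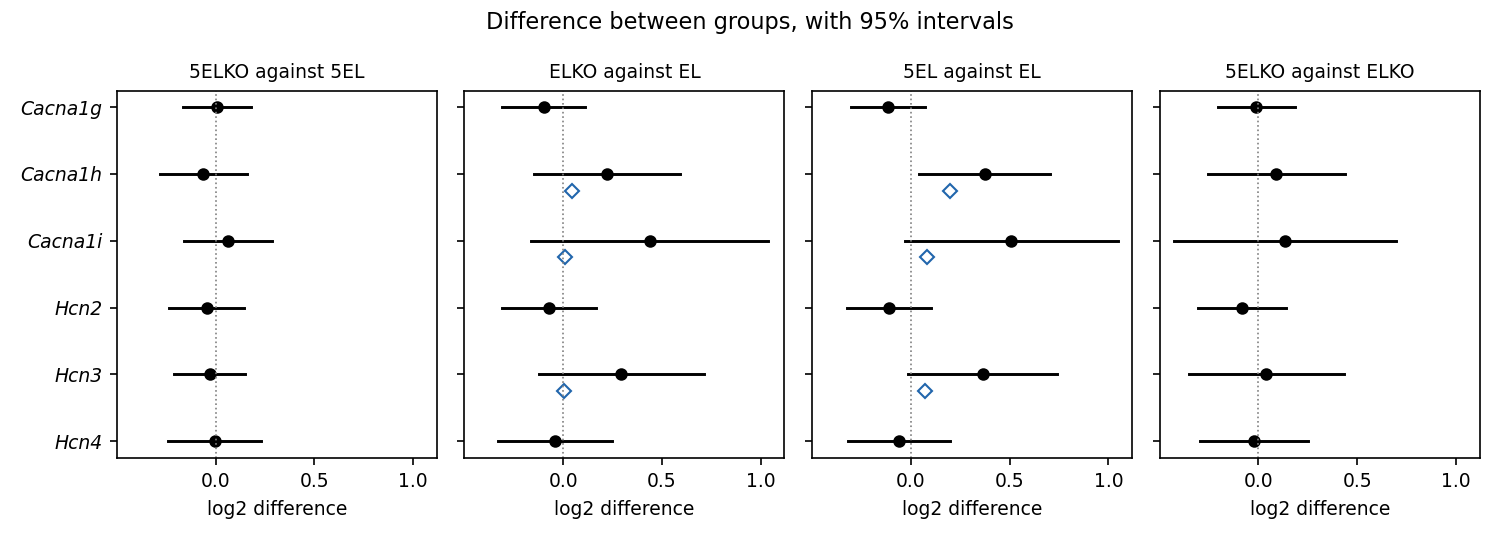
Log2 difference (horizontal axes) of each channel gene in the 4 comparisons between pairs of groups, the first-named group minus the second, with unadjusted 95% intervals from limma as bars. Open diamonds give the difference of Cacna1h, Cacna1i and Hcn3 without EL replicate 3, which for Cacna1i was 0.01 in ELKO against EL and 0.08 in 5EL against EL.

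Although the groups did not separate them, the channel genes varied from library to library more than most of the genes tested. Those genes were not matched for level, and low genes are drawn together in the deposited values. The within-group SD of Cacna1i, 0.40, was above that of 99.0% of the genes tested, and those of Hcn3 (0.28) and Cacna1h (0.24) were above 97.1% and 95.6%. Hcn4 (0.19), Hcn2 (0.15) and Cacna1g (0.13) stood at 90.6%, 81.9% and 74.1%. Without EL replicate 3 the SD of Cacna1i was 0.26 (97.6%), that of Hcn3 0.18 (92.9%) and that of Cacna1h 0.21 (95.5%). Without both replicate 3 libraries, Hcn4 (0.20) had the largest SD of the 6, above 95.8% of genes, and Cacna1i (0.18) stood at 94.3%.

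Which genes moved together did not follow the families. Cacna1g, a calcium channel gene, was closest among the 6 to Hcn4. Their Pearson's r over 15 libraries was 0.89 (permutation p = 2e-05, adjusted over 15 pairs 0.0003) and Spearman's rho was 0.84 (permutation p = 0.00024, adjusted 0.0036). The relation was 0.91 on deviations from group means and 0.88 without 5EL replicate 1 and 5ELKO replicate 4, the libraries farthest from the median. Without both replicate 3 libraries it was 0.89 (adjusted permutation p = 0.00105). It therefore did not rest on the libraries that stood apart. By contrast Cacna1g had an r of -0.06 with Cacna1h and 0.00 with Cacna1i.

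Cacna1h, Cacna1i and Hcn3 formed the other set. Cacna1i and Hcn3 had an r of 0.93 (permutation p = 0.00011, adjusted 0.000825) and a rho of 0.78 (permutation p = 0.00105, adjusted 0.00788). Cacna1h and Cacna1i had an r of 0.83 (permutation p = 0.00027, adjusted 0.00135) and a rho of 0.72 (permutation p = 0.00371, adjusted 0.0186). For Cacna1h and Hcn3 the r was 0.73 (permutation p = 0.00352, adjusted 0.0132), but the rho of 0.49 did not pass (permutation p = 0.0693, adjusted 0.208). The libraries farthest from the median were EL replicate 3 and ELKO replicate 3 in all 3 pairs. Without them r was 0.64, 0.50 and 0.23, with adjusted permutation p-values of 0.138, 0.307 and 0.868, so these relations rested on those libraries.

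Hcn2 and Hcn3 ran opposite to each other. Their r was -0.63 (permutation p = 0.0085, adjusted 0.0255) and their rho -0.70 (permutation p = 0.00553, adjusted 0.0207). On deviations from group means the r was -0.58 (adjusted permutation p = 0.0748), without the 2 farthest libraries, 5EL replicates 3 and 4, it was -0.77, and without both replicate 3 libraries -0.55 (adjusted permutation p = 0.247). In all, 5 of 15 pairs had an adjusted permutation p under 0.05 with Pearson's r, and 1 of them, Cacna1g with Hcn4, without both replicate 3 libraries.

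**Figure D3:**
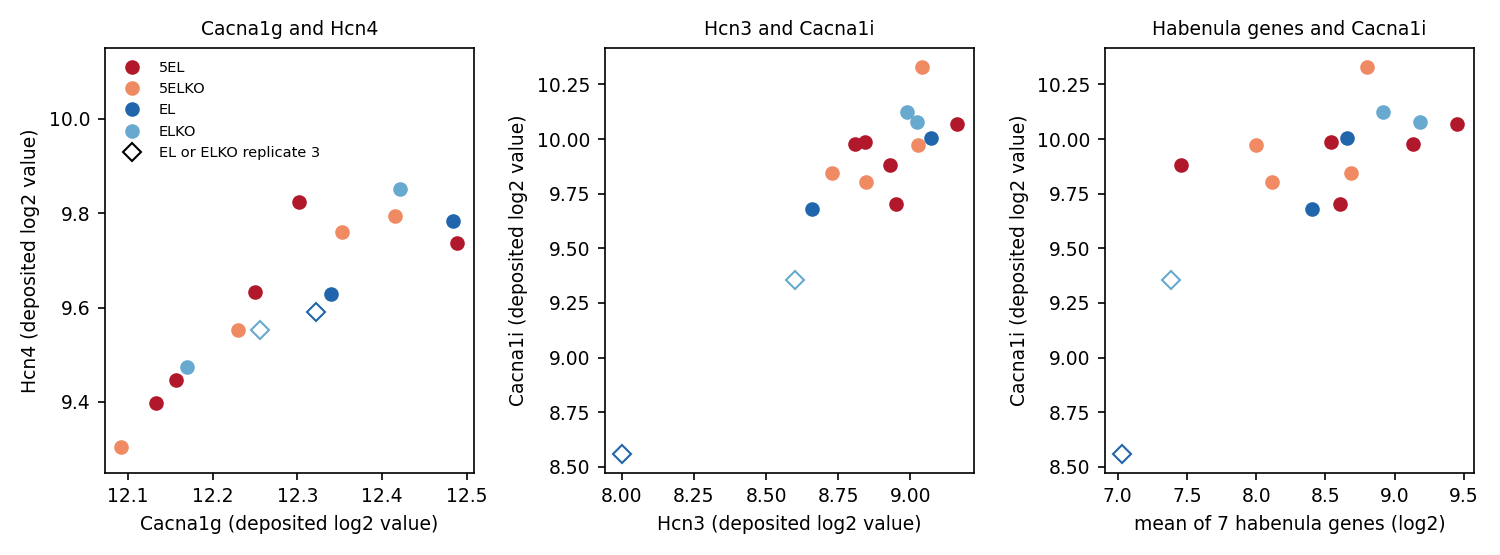
Deposited log2 values of Hcn4 against Cacna1g, of Cacna1i against Hcn3, and of Cacna1i against the mean log2 value of 7 habenula genes, with a point for each of the 15 libraries, coloured by group. Open diamonds are replicate 3 of EL and of ELKO; they lie inside the cloud for Cacna1g and Hcn4 (r = 0.89) and at its lower end for Hcn3 and Cacna1i (r = 0.93).

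The genes whose levels were most like those of each channel gene, by Pearson's r over 15 libraries, differed between both sets. They were picked as the highest r among all genes tested. The values without both replicate 3 libraries use 13 of the same libraries, so those values are no independent check. For Cacna1g they were Syt7, a synaptotagmin gene (0.93), Acap3 (0.92) and Zdhhc22 (0.92), and Hcn4 ranked 5. For Hcn4 they were Hdlbp (0.92), Ppip5k1 (0.91) and D630045J12Rik (0.91), and Cacna1g ranked 18. These r values were between 0.92 and 0.96 without both replicate 3 libraries. For Cacna1i the nearest were Tenm2, a teneurin gene (0.98), Ppfia4 (0.97) and Srgap3 (0.97), with Hcn3 at rank 82. For Hcn3 they were Usp11, Sphkap and Tmem196 (each 0.97), with Cacna1i at rank 99. The r values of these genes were between 0.79 and 0.89 without both replicate 3 libraries. For Cacna1h they were Klhdc10, Unc5a and Fgfr1 (each 0.94), and for Hcn2 they were Vamp1, a synaptobrevin gene (0.92), Scn4b, a sodium channel beta subunit gene (0.92) and Scrt1 (0.91).

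The levels were set beside 13 lists of cell type and region markers, as the mean log2 value of each list. EL replicate 3 lay below all 13 libraries other than the replicate 3 pair for 9 of 10 GABAergic and reticular genes and for 7 of 7 habenula genes, and above all of them for 7 of 12 relay genes. In ELKO replicate 3 the numbers were 2 of 10, 6 of 7 and 3 of 12. Other lists moved in the same libraries. Of 10 choroid plexus genes, 8 in EL replicate 3 and 5 in ELKO replicate 3 lay below all of the 13, and of 10 oligodendrocyte genes 4 and 6 lay above them. The 8 astrocyte genes differed from the median of the 13 by list medians of only -0.093 and -0.092. The lowest of them was Gfap, at -1.66 and -1.39, and the highest was S100b, at 0.463 and 0.315. The 13 include the 5xFAD libraries, and the pooled 5xFAD effect of Gfap was 1.08 (SE 0.223, adjusted p = 0.653 in limma). The GABA synthesis gene Gad1 was at 8.60 in EL replicate 3 and 9.52 in ELKO replicate 3, with a median of 11.21 in the others. Gpr151, a habenula marker, was at 7.61 and 8.40 with a median of 9.35, and Prkcd, a relay neuron marker, at 14.72 and 14.05 with a median of 13.64. None of these markers was near the filter limit of 3.32 in any library.

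By group, the GABAergic and reticular mean ran from 7.82 to 9.30 in 5EL, 8.73 to 9.45 in 5ELKO, 7.29 to 8.58 in EL and 7.93 to 8.82 in ELKO. The habenula mean ran from 7.46 to 9.45, 8.0 to 8.80, 7.03 to 8.66 and 7.39 to 9.18 in the same groups, and the relay mean from 12 to 12.33, 12.10 to 12.38, 12.31 to 12.61 and 12.15 to 12.38. With the GABAergic and reticular mean as a covariate, the pooled 5xFAD effect was -0.03 for Cacna1i, 0.02 for Cacna1h and 0.00 for Hcn3. With the relay mean as a covariate it was 0.07, 0.08 and 0.00. The GABAergic and reticular list itself differed with 5xFAD. In the pooled 5xFAD effect, 8 of its 10 genes were nominally higher in limma, where 6.57% of all genes passed, and its median was 0.677. Of the 12 relay genes 0 were nominal there, with a median of -0.145. Such fits cannot tell the group and the covariate apart.

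Of 78 relations between a channel gene and a marker list, 17 had an adjusted permutation p under 0.05 with Pearson's r. Cacna1i had an r of 0.77 with the GABAergic and reticular mean (permutation p = 0.00179, adjusted 0.014), but its rho of 0.53 did not pass (permutation p = 0.0474, adjusted 0.176). Cacna1i also had an r of 0.75 with the habenula mean (permutation p = 0.0007, adjusted 0.0091) and a rho of 0.76 (permutation p = 0.00129, adjusted 0.0267). Without EL replicate 3 and ELKO replicate 3, the libraries farthest from the habenula median, that r was 0.44. Hcn3 had an r of -0.78 with the relay mean (permutation p = 0.00044, adjusted 0.00764) and a rho of -0.58 (permutation p = 0.0267, adjusted 0.116), and its r without 5EL replicate 2 and EL replicate 3 was -0.50.

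Cacna1h had its largest r, 0.83, with the cortical and hippocampal mean (permutation p = 0.00011, adjusted 0.00429) and a rho of 0.79 (permutation p = 0.00062, adjusted 0.0267). Without 5EL replicate 2 and EL replicate 3 this r was 0.70, and that list stood at low levels in all libraries. Cacna1i (r = 0.78, permutation p = 5e-05, adjusted 0.0039) and Hcn3 (r = 0.76, permutation p = 0.0003, adjusted 0.00764) also followed that list. Their rho was 0.76 (adjusted permutation p = 0.0267) and 0.71 (adjusted permutation p = 0.0391). Without both replicate 3 libraries the r with that list was 0.67 for Cacna1h, 0.66 for Cacna1i and 0.60 for Hcn3. Hcn2 had an r of 0.75 with the pan-neuronal mean (permutation p = 0.00172, adjusted 0.014), a rho of 0.73 (permutation p = 0.00276, adjusted 0.0335) and an r of 0.76 without 5EL replicate 3 and 5ELKO replicate 3. The pan-neuronal mean itself ranged only from 13.33 to 13.47. Hcn4 had an r of -0.65 with the oligodendrocyte mean (permutation p = 0.0104, adjusted 0.0479), a rho of -0.65 (permutation p = 0.0111, adjusted 0.0757), and an r of -0.54 without 5ELKO replicate 4 and ELKO replicate 3. For Cacna1g 0 of its 13 relations passed with Pearson's r. With the relay mean its r was 0.59 (permutation p = 0.0207, adjusted 0.0809) and its rho, 0.69, passed (permutation p = 0.00562, adjusted 0.0487). With the oligodendrocyte mean its r was -0.63 (permutation p = 0.014, adjusted 0.0576), and on deviations from group means it was -0.69 and passed (adjusted permutation p = 0.0357). The latter p-value is likely too small, because the permutation ignored that deviations cancel within each group. Without EL replicate 3, and also without both replicate 3 libraries, 0 of the 78 relations passed, although the r of Cacna1g with the relay mean was then 0.75 in the 13 libraries (adjusted permutation p = 0.0844).

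**Figure D4:**
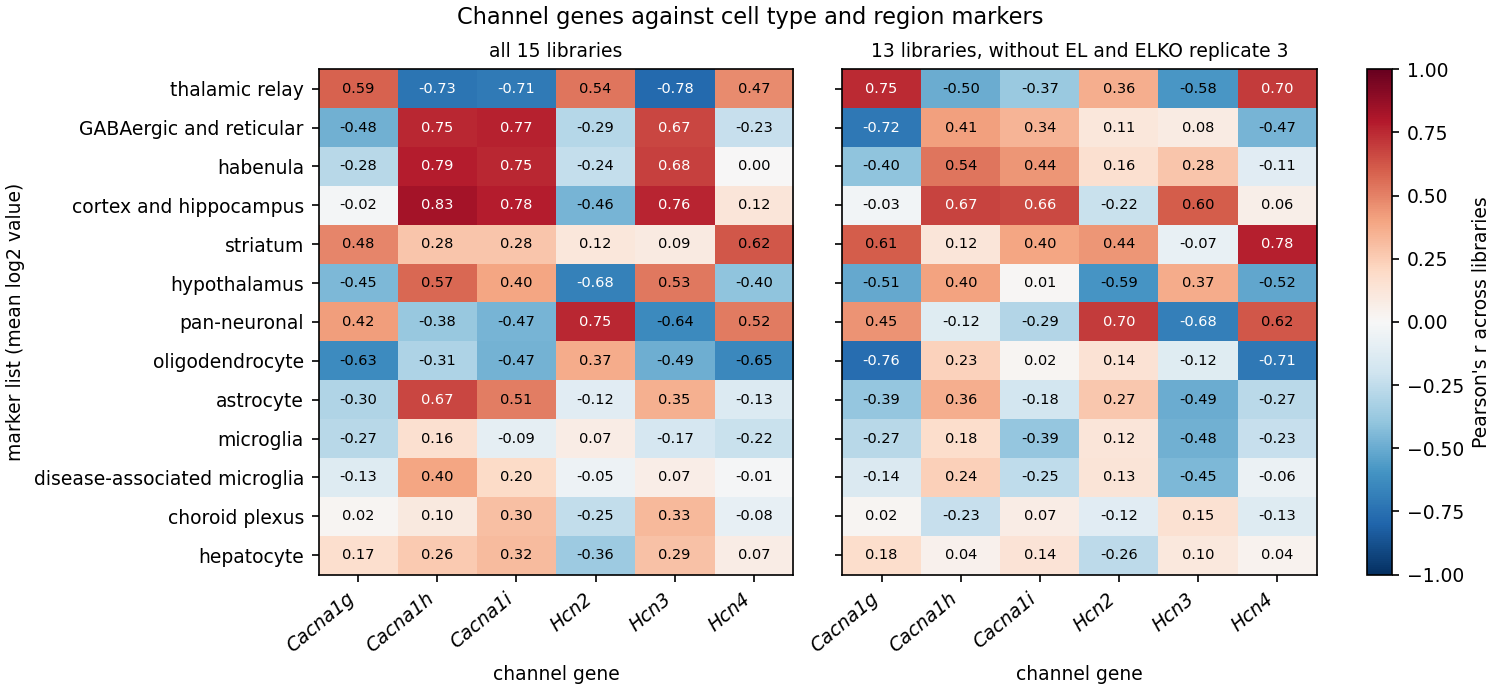
Pearson's r across libraries between each channel gene (columns) and the mean log2 value of each of 13 marker lists (rows), over 15 libraries on the left and without replicate 3 of EL and ELKO on the right. Red is positive and blue negative. Cacna1h, Cacna1i and Hcn3 share the positive r with the GABAergic, the habenula and the cortical and hippocampal lists on the left. These values are smaller on the right, and least so for the cortical and hippocampal list.

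The other genes of burst firing were taken as 6 lists, and in each of the 7 comparisons 0 of their 59 genes past the filter had an adjusted p under 0.05 in limma. Nominally, 7 of 59 passed in 5EL against EL, where 7.7% of all genes did, 4 of 59 in the pooled 5xFAD effect, where 6.57% did, 1 each in ELKO against EL and in the pooled deletion effect, and 0 in the others. Of the HCN partners, 9 of 10 passed the filter, and in the pooled 5xFAD effect 0 were nominal. Of 9 T-type partners 0 were nominal there, with Cacna2d2, an auxiliary calcium channel subunit gene, at 0.29 (SE 0.15). Of 11 genes of the high-voltage calcium channels 2 were nominally lower, led by the beta subunit gene Cacnb4 at -0.16 (SE 0.06, adjusted p = 0.693 in limma). Of 11 genes of cyclic AMP enzymes, whose product shifts HCN opening, 2 were nominally higher, led by the adenylyl cyclase gene Adcy2 at 0.12 (SE 0.05, adjusted p = 0.693 in limma). Of the 11 leak and small-conductance potassium channel genes and the 8 sodium channel genes 0 were nominal, with Kcnn1 at -0.12.

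In the pooled deletion effect, 1 gene of the 6 lists was nominal, the leak potassium channel gene Kcnk10 at 0.11 (SE 0.05, adjusted p = 1 in limma). In 4 of the other lists the genes with the smallest p were Apba2 (0.05), Cdk5 (-0.06), Cacna2d1 (-0.09) and Pde4b (0.13). The list medians in the pooled 5xFAD effect were 0.07 for the HCN partners, 0.00 for the T-type partners and 0.07 for the cyclic AMP enzymes, beside 0.08 for the 6 channel genes and 0.00 over all genes tested.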

How the data were processed

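Thalamus RNA of 15 libraries was compared. Per the methods and labels, the authors used Trimmomatic 0.39 for trimming, HISAT2 2.2.1 for alignment to GRCm38 and featureCounts 2.0.3 to count unstranded read pairs over exons, summed by gene name. The authors ran DESeq2 1.38.3 in their own comparison. The deposited values are log2 values from -2.27 to 18.98, whose transform is not named and in which low genes are drawn together, so small fold changes of low genes are understated and no count model was run.

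Genes at a log2 value of 3.32 (10 on the linear scale) or more in 4 of 9 or 3 of 15 libraries were tested with limma 3.58.1 in R 4.3.3 (lmFit, eBayes with a trend, Benjamini-Hochberg). 5ELKO against 5EL used its 9 libraries, and the other comparisons used all 15 with 4 group means. Correlations used 100000 permutations that treated all libraries as exchangeable, same-numbered EL and ELKO libraries included. On deviations from group means this ignores that deviations cancel within each group, so those p-values are likely too small. The fits were tested on simulated data. Levels per kb subtract log2 of the union exon length (GENCODE M21).

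Named genes were the 6 channel genes, Lilrb4a, in each list genes at an adjusted p under 0.05 or otherwise with the smallest p in both pooled effects, the 3 genes nearest each channel gene, and defining markers of lists that moved with a member. The members and lists were chosen with earlier results of these data known. Mouse Apoe was named after its values were seen. Deviations of same-numbered EL and ELKO libraries correlated at 0.45, 0.33 and 0.74, and those of 5EL and 5ELKO at -0.24 to 0.14. EL and ELKO libraries were paired by number on this ground alone. What the numbers share is not given in the sources used here. Alternatives were the filter, recentring, the variance trend, marker scores as covariates, a replicate block and leaving out libraries. Dixon's test was applied to the groups of 4 and 5 libraries, 12 in all, and 0 were past its limit.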

Additional observations from a re-analysis of the deposited data

How the results depend on the processing

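In 978 values of the 42 differences of the channel genes under alternative settings, 0 had an adjusted p under 0.05, and the adjusted p ran from 0.0803 to 1. Of these, 884 had the same sign and side of the threshold as the reported value and 94 turned in sign, with sizes after the turn of at most 0.20. No call was lost or gained, because the 6 genes were called in none of the comparisons. The deposited values carry no read numbers of single genes, so the precision of the lower genes, Cacna1h and Hcn3 among them, was not derived from depth. Groups of 3 limit the EL and ELKO comparisons. For 5EL and 5ELKO libraries the paper lists total reads and RNA integrity, which were not used here. RNA integrity reached lower values in 5ELKO than in 5EL, and that list holds more 5ELKO libraries than the 4 compared here. Leaving out both replicate 3 libraries, the GABAergic and reticular mean as a covariate, the block on the EL and ELKO pairs, the within-group SDs without replicate 3 libraries and the fits of marker relations without single libraries were chosen after seeing the data.

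With the replicate block, the sign turned in 5ELKO against 5EL for Hcn4 (0.049), in 5ELKO against ELKO for Cacna1g (0.021) and Hcn4 (0.014) and in the pooled deletion effect for Hcn4 (0.0035). With the choroid plexus mean as a covariate, the sign turned in 5ELKO against 5EL for Hcn4 (0.021), in 5ELKO against ELKO for Cacna1g (0.0034) and in the interaction for Hcn2 (-0.033). With the relay mean as a covariate, the sign turned in 5ELKO against 5EL for Cacna1g (-0.040) and Hcn3 (0.0025), in ELKO against EL for Hcn2 (0.027) and Hcn4 (0.088), in 5EL against EL for Cacna1g (0.012), Hcn2 (0.027), Hcn3 (-0.012) and Hcn4 (0.12), in 5ELKO against ELKO for Cacna1g (0.00065), in the interaction for Cacna1g (-0.012), Cacna1i (0.055), Hcn2 (-0.10), Hcn3 (0.019) and Hcn4 (-0.13), in the pooled 5xFAD effect for Cacna1g (0.0064), Hcn3 (-0.0023) and Hcn4 (0.058) and in the pooled deletion effect for Hcn4 (0.023). With the GABAergic and reticular mean as a covariate, the sign turned in 5ELKO against 5EL for Hcn4 (0.072), in 5ELKO against ELKO for Cacna1g (0.052), Cacna1h (-0.11), Cacna1i (-0.20), Hcn3 (-0.16) and Hcn4 (0.017), in the pooled 5xFAD effect for Cacna1g (0.0016), Cacna1i (-0.027), Hcn3 (-0.0048) and Hcn4 (0.00054) and in the pooled deletion effect for Cacna1h (-0.043) and Hcn4 (0.0010). Without both replicate 3 libraries of EL and ELKO, the sign turned in 5ELKO against ELKO for Cacna1h (-0.066), Cacna1i (-0.11) and Hcn3 (-0.10) and in the pooled 5xFAD effect for Cacna1i (-0.016) and Hcn3 (-0.011). Without both libraries high in choroid plexus genes, the sign turned in 5ELKO against 5EL for Hcn4 (0.028), in ELKO against EL for Hcn4 (0.034), in the interaction for Hcn2 (-0.018) and Hcn4 (-0.0061) and in the pooled deletion effect for Cacna1g (0.0096) and Hcn4 (0.031). The signs listed are those of log2 differences, and the cause was not tested. Recentring the libraries, dropping the trend, dropping the filter and the fit of 5ELKO against 5EL on all 15 libraries turned no sign.

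When each library was left out in turn, 19 differences spanned 0. In 5ELKO against 5EL these ranges were -0.041 to 0.067 for Cacna1g, -0.13 to 0.026 for Cacna1h, -0.052 to 0.12 for Cacna1i, -0.11 to 0.012 for Hcn2, -0.072 to 0.032 for Hcn3 and -0.068 to 0.095 for Hcn4. In ELKO against EL the range was -0.15 to 0.034 for Hcn4. In 5ELKO against ELKO these ranges were -0.067 to 0.059 for Cacna1g, -0.066 to 0.26 for Cacna1h, -0.11 to 0.27 for Cacna1i, -0.10 to 0.12 for Hcn3 and -0.10 to 0.090 for Hcn4. In the interaction these ranges were -0.67 to 0.053 for Cacna1i, -0.042 to 0.12 for Hcn2 and -0.038 to 0.15 for Hcn4. In the pooled 5xFAD effect the range was -0.079 to 0.015 for Hcn4. In the pooled deletion effect these ranges were -0.0082 to 0.16 for Cacna1h, -0.011 to 0.26 for Hcn3 and -0.080 to 0.026 for Hcn4.

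The number of all genes called was 3 in 5ELKO against 5EL, and it was 1 with no filter, 1 with the replicate block, 0 in the fit on all 15 libraries and 0 to 4 when a library was left out, the 0 coming in 5 such fits, those that omitted 5EL replicates 3, 4 and 5 and 5ELKO replicates 1 and 4. It was 1 in 5EL against EL with no filter, and 0 to 31 when a library was left out, the 31 coming without EL replicate 1. Without that library it was 1 in ELKO against EL and 2 in 5ELKO against ELKO, and both were at 0 in the other such fits. The replicate block changed no other call. Pairs of channel genes called by Pearson's r numbered 5, and 3 to 5 when a library was left out, the 3 coming when either replicate 3 library was omitted, and 1 without both. Relations with marker lists numbered 17, and 0 to 20 when a library was left out, the 0 coming without EL replicate 3, 11 coming without ELKO replicate 3, and 0 without both.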
